A study of Mus musculus with 6 samples.

Results

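Interferon beta, encoded by Ifnb1, and the interferon regulatory factors, encoded by the Irf genes, were described in macrophages of the peritoneal cavity, resident phagocytes of the abdomen. The members were taken by gene symbol: 9 rows of the 23699 rows in each table, namely Ifnb1, Irf1, Irf2, Irf3, Irf4, Irf5, Irf7, Irf8 and Irf9. All 9 were among the 10139 genes tested.

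Poly-A mRNA was sequenced from C57Bl/6 macrophages in 6 groups of 1 library each. Knockout (KO) macrophages carried a miR-221/222 -/Y genotype, the loss of the paired microRNA genes on the X chromosome, and the others were wild type (WT). Macrophages of each genotype were left untreated (naive), received lipopolysaccharide (LPS) at 1000 ng/ml for 4 h, or were tolerized. For tolerization, a first exposure of 15 h to LPS at 10 ng/ml was followed by a wash, a rest of 2 h and a second exposure to 1000 ng/ml during 4 h. The receptor of LPS, a bacterial cell wall component, is Toll-like receptor 4. In tolerance, macrophages respond in an altered way to LPS because of an earlier exposure. The series describes triplicates but each group here is 1 library, so no difference between single libraries has a replicate check. Whether a library pooled several animals, and which cells lose the microRNAs in the KO mice, is not given in the sources used here.

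In macrophages, Toll-like receptor 4 activates IRF3 through the adaptor TRIF and the kinases TBK1 and IKK-epsilon, and IRF3 together with NF-kappaB switches on Ifnb1. Secreted interferon beta then acts on its receptor, and the complex ISGF3, which contains STAT2 and IRF9, induces antiviral genes and Irf7. IRF7 in turn amplifies the production of type I interferons. The other factors act beside this loop: IRF1 and IRF5 activate inflammatory genes, IRF2 is known mainly as a competitor of IRF1, and IRF4 and IRF8 guide the differentiation and polarization of macrophages, dendritic cells and B cells.

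The mature 3p strands of the deleted microRNAs are shown because they share the seed, bases 2 to 8 (in capitals). With its seed a microRNA pairs to its targets. Sequences are from RefSeq, build GRCm38.p6, where both lie on the minus strand of the X chromosome.
mmu-miR-221-3p: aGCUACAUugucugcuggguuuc
mmu-miR-222-3p: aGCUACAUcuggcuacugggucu
The complement of that seed was searched for in the 3′ UTR of each member (GENCODE, GRCm38). Another mature strand, mmu-miR-221-5p, has a different seed, which was not searched for. Irf2 was the only member with a match, 1 site that spans base 1172 of 1236. Its surroundings are shown with the match in capitals.
Irf2 3′ UTR site: tttatgagctcATGTAGCaatcaaattatc
Among the 9012 tested genes with an annotated 3′ UTR, 11.0% held at least 1 such match. A match describes these letters and does not show that the microRNA binds there. The microRNA genes themselves, Mir221 and Mir222, were listed at 0 FPKM in all 6 libraries, WT included, so these poly-A libraries give no check of the genotype labels.

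The deposited intervals implied about 17.6 to 25.0 M fragments per library, an estimate, since read counts were not used here. Macrophage genes were abundant throughout, with the 7 listed markers summing to 10760.3 to 48603 FPKM. Transcripts of other peritoneal cells were also present. The 9 B cell and plasma cell markers summed to 293 to 778 FPKM and the 8 T and NK cell markers to 7.57 to 21.3 FPKM. Of the 5 dendritic cell markers, Cd209a reached 36.9 FPKM in the WT naive library and 11.7 FPKM in the WT LPS library, against at most 0.0898 FPKM in the other 4 libraries. The neutrophil marker Ngp was at 0 in every library and Elane and Mpo were at or below 0.147 FPKM, while Camp stood at 0.738 FPKM in WT naive and at 4.30 to 8.85 FPKM in the other 5 libraries, and S100a8 ranged over 65.2 to 341 FPKM. The 3 listed monocyte genes summed to 17.4 to 116 FPKM, and of the mast cell and eosinophil genes Cma1 stood at 28.6 to 70.0 FPKM with Epx at or below 0.023 FPKM. Because each library is a bulk sample, fewer cells of a type and less RNA per cell cannot be told apart.

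Changes between conditions were tested with limma on log2(FPKM + 1) over all 6 libraries, with genotype as a second term, so each condition rests on 2 libraries. The p-values were adjusted by Benjamini-Hochberg over the 10139 genes. They measure only the spread between these libraries. With 1 library per group, that spread includes any difference between KO and WT in the change between conditions. It cannot be told apart from technical variation. Comparisons that use the same libraries, such as LPS against naive and tolerized against LPS, are not independent of each other. Across all genes the median log2 difference was -0.76 for LPS against naive, 0.51 for tolerized against LPS and -0.22 for tolerized against naive. After rescaling the libraries by the median of ratios these medians were -0.19, 0.11 and -0.06. The members' differences are therefore also given relative to the median where this changes the reading.

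With LPS, Ifnb1, Irf1, Irf4, Irf7 and Irf9 rose and Irf3 fell. The share of all genes that rose was 8.74% and the share that fell was 54.4%, so an increase was less common than a decrease in these values. Tolerized macrophages, set against macrophages given LPS once, showed lower Ifnb1, Irf1, Irf2 and Irf5 and higher Irf3 past the test, where 4.32% of all genes fell and 36.8% rose. Set against naive macrophages, tolerized macrophages had higher Irf4, Irf7 and Irf9 and lower Irf2 past the test, where 7.41% of all genes rose and 19.7% fell. The median over the 9 members was 1.49 for LPS against naive, -0.54 for tolerized against LPS and -0.05 for tolerized against naive.

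**Figure D1:**
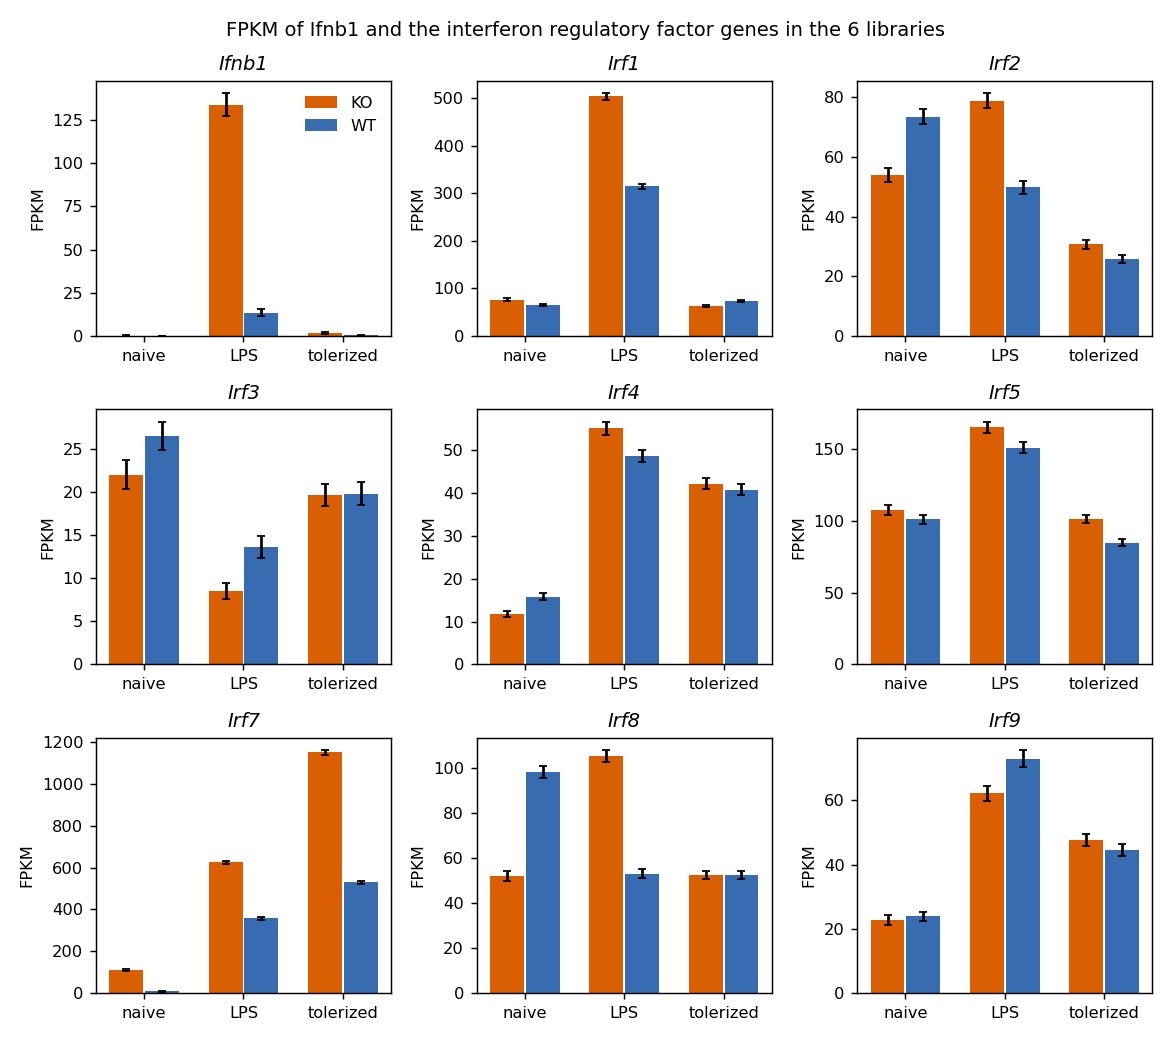
FPKM of each member (vertical axis, linear, one scale per gene) in naive, LPS and tolerized macrophages, with KO left of WT. Bars are single libraries and whiskers the deposited intervals, which cover counting error only. Ifnb1 stands at 134 FPKM in KO LPS macrophages against 13.5 FPKM in WT LPS macrophages, and Irf7 reaches 1151 FPKM in KO tolerized macrophages against 529 FPKM in WT tolerized macrophages.

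The order of the levels separated some members more than others. The deposited intervals of all 6 libraries were apart only for Irf7. These intervals cover counting error only and are relatively narrower where more fragments were counted. The share of all genes with intervals apart was not computed, so the overlaps only describe these values. For Irf4 the intervals of KO tolerized and WT tolerized overlapped, and for Irf9 also those of KO naive and WT naive. Neighbours that overlapped were KO naive and WT tolerized, and KO tolerized and WT naive, for Irf1, and KO naive and WT LPS for Irf2. For Irf3 they were KO naive with both tolerized libraries, and for Irf5 KO tolerized with both naive libraries. For Ifnb1, KO naive overlapped with WT tolerized and with WT naive, while WT tolerized and WT naive were apart. The WT naive interval has no width because its value is 0, and WT tolerized rests on 6.00 implied fragments. That separation therefore carries little weight.

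Ifnb1 (mm9 chr4:88167929-88168698) encodes the type I interferon that starts the autocrine loop. In KO macrophages it was measured at 0.103 FPKM naive, 134 FPKM with LPS and 1.65 FPKM after tolerization. The WT libraries held 0, 13.5 and 0.438 FPKM in the same order. The transcript was thus high only in the LPS libraries of this set, and within both conditions with LPS the KO library was the higher one. The KO values rest on an implied 1, 1633 and 23.0 fragments, and the WT values on 0, 145 and 6.00. The naive levels are at or near the limit of detection at this depth, so no fold change against them is given.

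With LPS, Ifnb1 rose by 5.40 ± 0.67 (log2 difference ± SE, adjusted p = 0.0011). Leaving out 1 library gave 4.05 (without KO LPS) to 6.75 (without WT LPS), all past the threshold. Tolerized macrophages had 81.1-fold less Ifnb1 than LPS macrophages in KO (95% counting interval 53.9 to 128) and 30.9-fold less in WT (13.9 to 85.7). In the fit this was a difference of -4.50 ± 0.67 (adjusted p = 0.0081), which ranged over -5.86 (without WT LPS) to -3.15 (without KO LPS). Tolerized against naive the difference was 0.89 ± 0.67 (adjusted p = 0.36), and it passed only with a pseudocount of 0.1, at 2.77 (adjusted p = 0.016). When all 22165 rows entered the fit, the filter on low values being dropped, both Ifnb1 calls were lost (adjusted p = 0.063 for LPS against naive and 0.13 for tolerized against LPS). In that fit the number of all genes that rose and fell was 463 and 3935 for LPS against naive, 25 and 3 for tolerized against LPS and 31 and 14 for tolerized against naive, against 886 and 5511, 3733 and 438, and 751 and 2000 with the filter. The members' log2 differences were the same in both fits.

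The promoters of Ifnb1 and Irf1 are shown because these members had the 2 largest decreases in tolerized against LPS macrophages. Each runs from 250 bases before to 50 bases after the RefSeq start site in GRCm38.p6, 5′ to 3′ on the gene's strand. Capitals mark matches, on either strand, to the IRF core (AANNGAAA), the interferon-stimulated response element (ISRE, GAAA, any 2 bases and GAAA again), the gamma-activated site (GAS, TTCNNNGAA), AP-1 (TGANTCA) or the kappaB motif.
Ifnb1, chr4:88522745-88523044, minus strand: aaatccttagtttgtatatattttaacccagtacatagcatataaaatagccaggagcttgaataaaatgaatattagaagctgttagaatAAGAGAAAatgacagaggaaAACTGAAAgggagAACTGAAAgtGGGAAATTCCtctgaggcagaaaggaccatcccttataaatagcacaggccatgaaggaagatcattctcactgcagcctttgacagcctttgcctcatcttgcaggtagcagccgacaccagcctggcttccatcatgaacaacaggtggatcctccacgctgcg
Irf1, chr11:53769764-53770063, plus strand: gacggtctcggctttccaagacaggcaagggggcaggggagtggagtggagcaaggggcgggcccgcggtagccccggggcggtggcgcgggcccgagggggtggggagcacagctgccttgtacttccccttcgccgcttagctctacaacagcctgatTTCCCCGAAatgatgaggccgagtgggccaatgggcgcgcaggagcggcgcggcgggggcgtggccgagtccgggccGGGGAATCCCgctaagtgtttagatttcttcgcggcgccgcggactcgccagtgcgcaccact
The Ifnb1 window held 3 IRF cores, starting at -159, -139 and -126 from the start site, followed by a kappaB match at -116. The Irf1 window held a GAS at -90 and a kappaB match at -13 that reads on both strands. Over 32851 mouse promoters of the same length, 23.9% held an IRF core, 3.44% an ISRE, 8.30% a GAS, 7.81% an AP-1 match and 8.46% a kappaB match. Promoter sequences were found for all 9 members. In their first listed windows Irf2 held 2 IRF cores (at -245 and -239) that overlap an ISRE at -241, a GAS at -224 and a kappaB match at -17, Irf8 held GAS matches at -171 and -153, and Irf3, Irf4, Irf5, Irf7 and Irf9 held none of the 5 motifs. No match says only that these letters are not in this window.

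Irf3 (mm9 chr7:52253018-52258218) encodes a factor that is known to be made constitutively and activated by phosphorylation. Its level was 22.0, 8.50 and 19.6 FPKM in KO naive, LPS and tolerized macrophages. In WT macrophages it was 26.5, 13.7 and 19.8 FPKM. Both LPS libraries were the lowest of their genotype. With LPS, Irf3 fell by 1.09 (SE 0.22, adjusted p = 0.0065), a difference of -0.34 relative to the median of all genes, and in tolerized against LPS macrophages it rose by 0.81 ± 0.22 (adjusted p = 0.032), or 0.31 relative to that median. After rescaling, the differences were -0.49 (adjusted p = 0.10) and 0.38 (adjusted p = 0.23), so neither call held. The second call was also lost without any one of the LPS or tolerized libraries (adjusted p = 0.054 to 0.28), and with all rows in the fit both were lost (adjusted p = 0.060 and 0.14). Tolerized and naive macrophages differed by -0.28 ± 0.22 (adjusted p = 0.40).

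Irf5 (mm9 chr6:29476625-29487320) encodes a factor that acts with MyD88 on inflammatory cytokine genes. It was measured at 107, 165 and 101 FPKM in KO naive, LPS and tolerized macrophages and at 101, 151 and 84.9 FPKM in WT. The LPS library was the highest of each genotype, by 1.54-fold over naive in KO (95% counting interval 1.48 to 1.60) and 1.49-fold in WT (1.43 to 1.55). In the fit this was 0.60 ± 0.23 (adjusted p = 0.058), which passed after rescaling (1.23, adjusted p = 0.0052) and with all rows in the fit (adjusted p = 0.038). In tolerized against LPS macrophages Irf5 fell by 0.76 (SE 0.23, adjusted p = 0.039). That call was lost without any one of the LPS or tolerized libraries (adjusted p = 0.14 to 0.28) and with all rows in the fit (adjusted p = 0.081).

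Irf7 (mm9 chr7:148449082-148452323) encodes the inducible amplifier of the loop. The KO libraries held 110.5, 624 and 1151 FPKM in naive, LPS and tolerized macrophages, and the WT libraries 7.45, 356 and 529 FPKM. Its order over the conditions differed from that of Ifnb1, since the tolerized library held more Irf7 than the LPS library in each genotype. That log2 difference was 0.88 in KO and 0.57 in WT, where the medians of all genes were 0.55 and 0.47. After rescaling it was 0.36 in KO and 0.16 in WT. As for Ifnb1, KO exceeded WT in every condition. Irf7 rose with LPS by 3.94 ± 0.69 (adjusted p = 0.0035) and stood 4.67 ± 0.69 higher in tolerized than in naive macrophages (adjusted p = 0.0070). Both values depended on the naive libraries. They were 5.32 and 6.05 without KO naive and 2.57 and 3.29 without WT naive, all past the threshold. With all rows in the fit both calls were lost (adjusted p = 0.10 and 0.15). Tolerized against LPS, Irf7 differed by 0.73 ± 0.69 (adjusted p = 0.43), past the threshold only without WT naive (adjusted p = 0.042) or KO naive (adjusted p = 0.040).

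Irf1 (mm9 chr11:53583516-53591876) encodes an early activator that interferon gamma and NF-kappaB induce. It moved in the direction of Ifnb1 for LPS against naive and for tolerized against LPS. In KO macrophages it stood at 76.3 FPKM naive, 503 FPKM with LPS and 63.6 FPKM after tolerization, and in WT macrophages at 65.6, 315 and 73.3 FPKM. The 2 LPS libraries lay above the other 4, whose values spanned 63.6 to 76.3 FPKM. Irf1 rose with LPS by 2.47 ± 0.29 (adjusted p = 0.00094), and in tolerized against LPS macrophages it fell by 2.53 (SE 0.29, adjusted p = 0.0069). Against naive macrophages the tolerized ones differed by -0.05 ± 0.29 (adjusted p = 0.91). With all rows in the fit the second call was lost (adjusted p = 0.082).

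Irf2 (mm9 chr8:47825099-47932812) encodes the competitor of IRF1 and carries the seed match given above. Its values were 53.9, 78.8 and 30.7 FPKM in KO naive, LPS and tolerized macrophages and 73.4, 49.7 and 25.9 FPKM in WT. The tolerized libraries were the lowest in both genotypes, while the LPS library lay above the naive one in KO and below it in WT. In tolerized against LPS macrophages Irf2 fell by 1.12 (SE 0.30, adjusted p = 0.028). In tolerized against naive macrophages it fell by 1.13 (SE 0.30, adjusted p = 0.037). The first call was lost without KO LPS, WT tolerized or KO tolerized (adjusted p = 0.17, 0.10 and 0.076). The second was lost without WT naive, WT tolerized or KO tolerized (adjusted p = 0.16, 0.14 and 0.082) and after rescaling (-0.96, adjusted p = 0.077). With all rows in the fit both were lost (adjusted p = 0.19 and 0.22). LPS against naive gave -0.01 ± 0.30 (adjusted p = 0.99), a mean over unlike directions: 0.54 in KO and -0.55 in WT, or 1.24 and 0.01 after rescaling.

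Irf4 (mm9 chr13:30841127-30858796) and Irf8 (mm9 chr8:123260276-123280592) encode related factors that bind DNA with partners such as PU.1 and BATF. Irf4 was measured at 11.7, 55.1 and 42.1 FPKM in KO naive, LPS and tolerized macrophages and at 15.7, 48.6 and 40.8 FPKM in WT. All 4 libraries that had received LPS lay above both naive libraries. Irf4 rose with LPS by 1.85 ± 0.23 (adjusted p = 0.0011) and was 1.54 ± 0.23 higher in tolerized than in naive macrophages (adjusted p = 0.0070). The second call was lost with all rows in the fit (adjusted p = 0.099). Tolerized and LPS macrophages differed by -0.31 ± 0.23 (adjusted p = 0.30).

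Irf8 moved differently. It was measured at 52.0, 105 and 52.5 FPKM in KO naive, LPS and tolerized macrophages and at 97.9, 53.0 and 52.2 FPKM in WT. KO LPS and WT naive were the high libraries, and the deposited intervals of the other 4 overlapped. None of its 3 condition comparisons passed (0.06 ± 0.43, -0.50 ± 0.43 and -0.44 ± 0.43 for LPS against naive, tolerized against LPS and tolerized against naive; adjusted p = 0.91, 0.38 and 0.49). Both genes are also active in B cells and dendritic cells. The summed B cell and plasma cell markers were 637, 293 and 637 FPKM in KO naive, LPS and tolerized macrophages and 778, 324 and 507 FPKM in WT, lowest in both LPS libraries. The summed dendritic cell markers were 3.83, 4.07 and 3.89 FPKM in KO and 39.4, 14.9 and 3.49 FPKM in WT, with Cd209a making up 36.9 and 11.7 FPKM of the WT naive and WT LPS sums and 0.0638 FPKM of the WT tolerized sum. The larger WT naive and WT LPS sums thus came from Cd209a, and the remaining dendritic cell markers were mixed. Among naive libraries, KO exceeded WT for Zbtb46 (2.65 against 1.42 FPKM), Xcr1 and Flt3, and WT exceeded KO for Siglech. Among LPS libraries, KO exceeded WT for Xcr1 (2.03 against 0.979 FPKM) and Flt3, and WT exceeded KO for Zbtb46 and Siglech. The part of B cells and dendritic cells in the Irf4 and Irf8 levels was not tested.

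Irf9 (mm9 chr14:56222822-56228867), the DNA-binding subunit of ISGF3, was measured at 22.9, 62.2 and 47.8 FPKM in KO naive, LPS and tolerized macrophages and at 23.9, 73.0 and 44.5 FPKM in WT. The order naive, tolerized, LPS from low to high was the same in both genotypes. Irf9 rose with LPS by 1.49 ± 0.21 (adjusted p = 0.0016) and was 0.95 ± 0.21 higher in tolerized than in naive macrophages (adjusted p = 0.021). The call for tolerized against naive was lost without WT naive, WT tolerized, KO naive or KO tolerized (adjusted p = 0.071, 0.095, 0.059 and 0.19), and with all rows in the fit (adjusted p = 0.094). Tolerized against LPS the difference was -0.54 ± 0.21 (adjusted p = 0.082), past the threshold after rescaling (-0.998, adjusted p = 0.023).

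**Figure D2:**
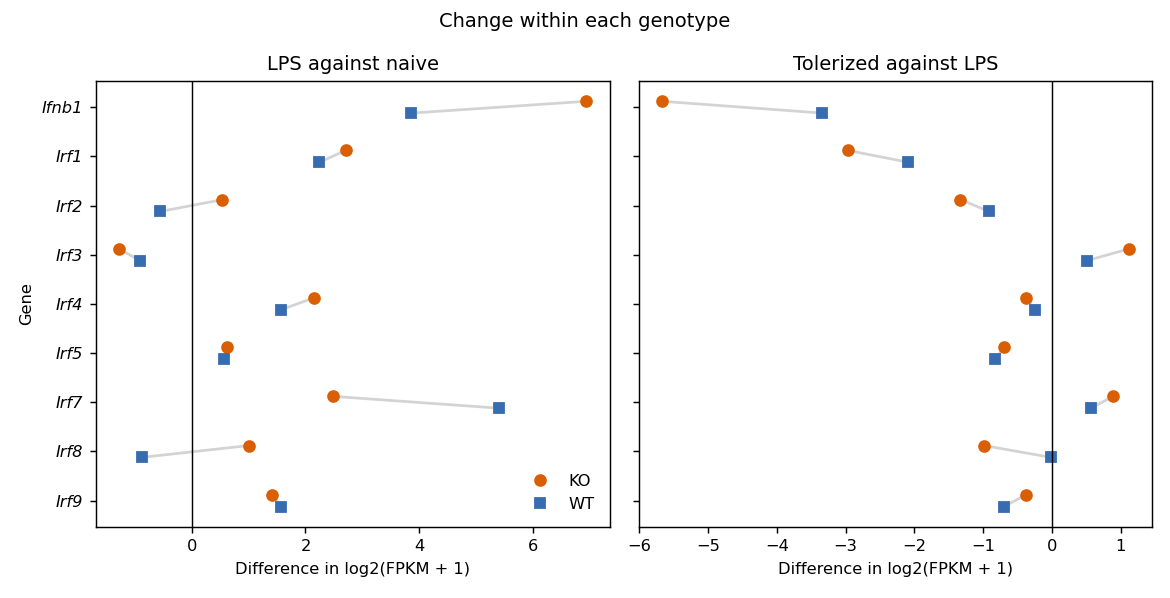
Differences in log2(FPKM + 1) of each member within KO (circles) and within WT (squares), for LPS against naive (left) and tolerized against LPS (right), 1 library per group. Ifnb1 and Irf1 lie right of 0 in the left panel and left of 0 in the right panel, and Irf2 and Irf8 lie on opposite sides of 0 with LPS in KO and WT.

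Between genotypes, the largest differences among the members were those of Ifnb1 with LPS and Irf7 in naive macrophages. In LPS macrophages KO had 9.89 times the Ifnb1 of WT (95% counting interval 8.34 to 11.8), and the deposited intervals did not overlap. In tolerized macrophages the ratio was 3.77 (1.49 to 11.3). Irf7 in KO was 14.8 times its WT level in naive macrophages (13.0 to 17.0), 1.75 times with LPS (1.71 to 1.79) and 2.18 times in tolerized macrophages (2.14 to 2.21). These intervals cover counting error only and say nothing of the variation between animals or cultures.

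In FPKM as deposited, each of the other members differed by less than 2-fold between genotypes in every condition. With LPS, Irf8 in KO was 1.98 times WT (1.89 to 2.08), while in naive macrophages it was 1.88-fold lower in KO (1.79 to 1.98) and in tolerized macrophages the ratio was 1.01 (0.960 to 1.06). Irf1 and Irf2 were 1.60 and 1.58 times as high in KO as in WT with LPS, and Irf3 was 1.61-fold lower in KO. In tolerized macrophages, Irf3, Irf4, Irf8 and Irf9 had overlapping deposited intervals in KO and WT. The share of all genes with such an overlap was not computed. Irf4, Irf5 and Irf9 stayed within 1.34-fold between genotypes in every condition.

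A rule of size, at least 2-fold on the log2(FPKM + 1) scale with 2 FPKM or more in either library, was met by Irf7 in naive macrophages, by Ifnb1 with LPS and by Irf7 in tolerized macrophages, each higher in KO. Irf8 with LPS lay just under it at a log2 difference of 0.97, and at 1.12 after rescaling. Across all genes the rule was met upward in KO by 3.95% in naive, 4.19% in LPS and 1.81% in tolerized macrophages, and downward by 3.12%, 3.05% and 0.774%. The limma fit, in which each genotype has 3 libraries, called 0 of 9 members higher and 0 lower in KO, as it called 0% of all genes in either direction. At an unadjusted p under 0.05 it held 2 members and 707 genes in all (6.97%). The one-factor fit, genotype alone, also called 0, with 0 members and 59 genes under that p. It leaves the differences between conditions in its spread, so it decides little for genes that LPS changes. In limma Irf7 came to 1.88 ± 0.56 (adjusted p = 0.53) and Ifnb1 to 1.41 ± 0.55 (adjusted p = 0.68), and these were the 2 members. Both were higher in KO in 3 of 3 conditions, the naive Ifnb1 value resting on 1 fragment. Without WT tolerized or KO tolerized the Irf7 difference was 2.26 in both cases, since either fit takes it from the naive and LPS libraries alone. Without either naive library the Irf7 difference was 0.96, and without either LPS library the Ifnb1 difference was 0.51. A difference between genotypes in the response to LPS or in tolerization was not tested, since single libraries leave no spread for it.

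Markers of other cells and of macrophage subsets also differed between the KO and WT libraries. The 3 monocyte genes summed to 39.9, 42.0 and 116 FPKM in KO naive, LPS and tolerized macrophages and to 17.4, 17.8 and 46.0 FPKM in WT, with Ly6c2 at 33.8 FPKM in KO naive and 3.95 FPKM in WT naive macrophages and Ccr2 at 1.17 and 9.68 FPKM. The 5 neutrophil genes summed to 170.4, 148 and 348 FPKM in KO and to 66.1, 111 and 200.0 FPKM in WT, nearly all from S100a8. Both sums were higher in KO in every condition. The 4 markers of large peritoneal macrophages, the main resident population, summed to 145, 160.3 and 69.3 FPKM in KO and to 142, 95.5 and 40.8 FPKM in WT. Within that list Timd4 had 108 FPKM in KO naive and 35.6 FPKM in WT naive macrophages, whereas Gata6 had 4.88 and 13.0 FPKM and Cd5l had 9.26 and 69.6 FPKM. The plasma cell marker Sdc1 had 61.0 FPKM in KO naive and 17.0 FPKM in WT naive macrophages. It was among only 2 of the 9 B cell and plasma cell markers that were higher in KO naive macrophages. The median difference of that list was -0.37. The part of these cells in the differences of Ifnb1, Irf7 and the interferon-stimulated genes was not tested.

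**Figure D3:**
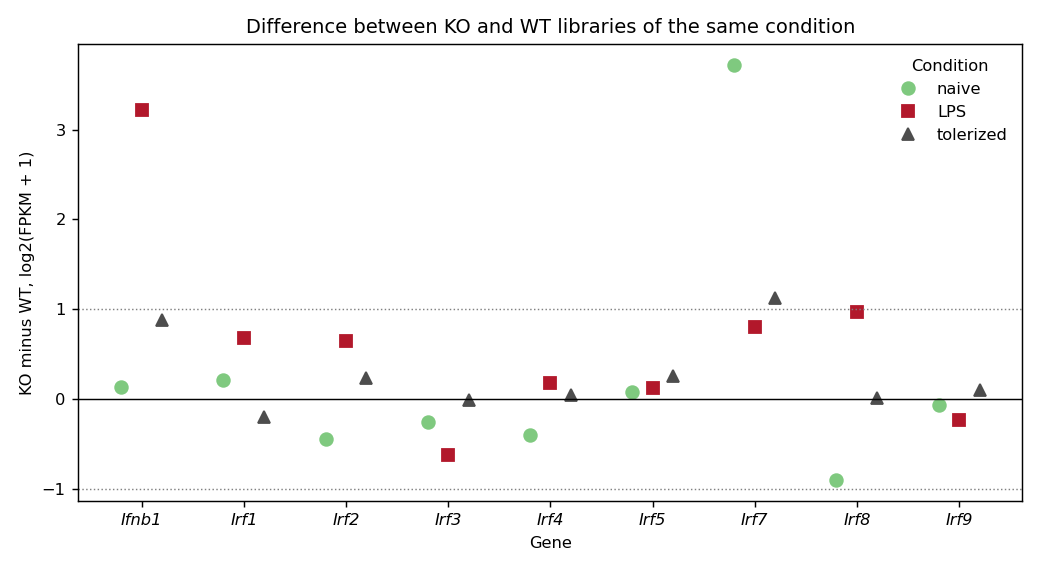
Difference between the KO and the WT library, KO minus WT in log2(FPKM + 1), for each member in naive (circles), LPS (squares) and tolerized (triangles) macrophages. Dotted lines mark 2-fold. Ifnb1 with LPS and Irf7 in naive and tolerized macrophages lie above the upper line, and no member lies below the lower one.

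The remaining interferon ligands were scarce. Of 21 listed, 19 had a usable row and only Ifnb1 and Ifng, the gene of interferon gamma, were abundant enough to be tested. Ifng was measured at 0.230, 7.49 and 5.18 FPKM in KO naive, LPS and tolerized macrophages and at 0, 2.51 and 6.49 FPKM in WT. It rose with LPS by 2.30 ± 0.36 (adjusted p = 0.0024) and differed between tolerized and LPS macrophages by 0.32 ± 0.36 (adjusted p = 0.50). Tolerized against naive it rose by 2.62 ± 0.36 (adjusted p = 0.0060), and KO against WT it differed by 0.43 ± 0.29 (adjusted p = 0.82). The alpha interferon gene Ifna4 had 5.73 FPKM in KO LPS macrophages, against 0.725 FPKM in WT LPS macrophages. Ifna2 and Ifna5 had 2.80 and 2.48 FPKM in KO LPS macrophages and were listed at 0 in WT LPS macrophages. Reads of these near-identical genes can be assigned to one another, so their single values are uncertain. The lambda interferon genes Il28a and Il28b and the epsilon gene Ifne were at 0 in all 6 libraries.

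Genes that carry the signal from Toll-like receptor 4 to Ifnb1 changed in both directions. Of 12 tested, 3 rose and 3 fell with LPS, with a median of -0.25 against -0.76 over all genes. Cd14, the LPS co-receptor, rose by 1.89 ± 0.47 (adjusted p = 0.013) and Azi2, a TBK1 adaptor, by 1.59 ± 0.21 (adjusted p = 0.0012). The median for tolerized against LPS was 0.40 against 0.51 over all genes, and 4 rose and 1 fell. Tbkbp1, another TBK1 adaptor, rose by 1.45 ± 0.29 (adjusted p = 0.013) and Ikbke, the gene of IKK-epsilon, by 1.24 ± 0.28 (adjusted p = 0.019). Tolerized against naive, 4 rose and 0 fell, Ikbke among them at 1.05 ± 0.28 (adjusted p = 0.040), while Cd14 differed by 1.57 ± 0.47 (adjusted p = 0.052). After rescaling, the counts were 4 up and 1 down with LPS, 1 up and 2 down for tolerized against LPS, and 5 up and 0 down for tolerized against naive. Over all 10139 genes, 8.74% rose and 54.4% fell with LPS. For tolerized against LPS 36.8% rose and 4.32% fell, so increases there were common among all genes. For tolerized against naive 7.41% rose and 19.7% fell. After rescaling, 1765 genes rose and 3073 fell with LPS, 1214 and 750 for tolerized against LPS, and 899 and 1361 for tolerized against naive. The lists below are to be read beside the same shares.

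The receptors and signal transducers of interferon changed in both directions. Of 14 tested, 6 rose and 4 fell with LPS (6 and 1 after rescaling). Usp18, which blocks the type I receptor, rose by 5.26 ± 0.27 (adjusted p = 0.00034) and Socs1, a JAK inhibitor, by 4.63 ± 0.57 (adjusted p = 0.0011). Tolerized against LPS, 3 rose and 2 fell (0 and 4 after rescaling), where Usp18 fell by 2.14 (SE 0.27, adjusted p = 0.0077) and Stat2, a subunit of ISGF3, fell by 1.33 (SE 0.21, adjusted p = 0.0088). Tolerized against naive, 6 rose and 1 fell (7 and 1 after rescaling), led by Socs1 at 4.26 ± 0.57 (adjusted p = 0.0053) and Socs3 at 3.79 ± 0.41 (adjusted p = 0.0036). The list medians were -0.02, 0.21 and 0.49 for the 3 comparisons, against -0.76, 0.51 and -0.22 over all genes.

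Partners and co-regulators of the factors were also mixed. Of 14 tested, 6 rose and 4 fell with LPS (6 and 3 after rescaling), with Batf2, which pairs with IRF1 in macrophages, at 3.48 ± 0.28 (adjusted p = 0.00048) and Trim21, a ubiquitin ligase that acts on IRF proteins, at 2.78 ± 0.23 (adjusted p = 0.00050). Tolerized against LPS, 5 rose and 4 fell (1 and 6 after rescaling), and Batf2 fell by 2.12 (SE 0.28, adjusted p = 0.0079) and Trim21 fell by 1.93 (SE 0.23, adjusted p = 0.0072). Tolerized against naive, 4 rose and 1 fell (5 and 0 after rescaling), and Batf, a partner of IRF4 and IRF8, rose by 2.55 ± 0.34 (adjusted p = 0.0056) and Batf2 by 1.36 ± 0.28 (adjusted p = 0.018). The medians were 0.03, 0.35 and 0.14, against -0.76, 0.51 and -0.22 over all genes. In KO against WT, the 2 largest differences of each list were those of Cd14 (-0.63 ± 0.38, adjusted p = 0.80) and Tank (0.60 ± 0.20, adjusted p = 0.58), of Usp18 (0.83 ± 0.22, adjusted p = 0.47) and Ifngr1 (-0.75 ± 0.26, adjusted p = 0.61), and of Batf2 (0.93 ± 0.23, adjusted p = 0.43) and Batf3 (-0.75 ± 0.33, adjusted p = 0.74). The limma fit called 0 of the 12, 14 and 14 genes of these 3 lists, with 1, 3 and 1 at an unadjusted p under 0.05 in the order given, and the one-factor fit called 0 and had 0 under that p.

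The 15 interferon-stimulated outputs, genes that interferons are known to induce, rose with LPS in 14 cases, with a median of 6.81. Cxcl10, a T cell attractant, rose by 10.15 ± 0.37 and Rsad2, the antiviral protein viperin, by 8.90 ± 0.31 (adjusted p = 0.00025 for each). Ciita, the master regulator of MHC class II genes, fell by 1.75 (SE 0.29, adjusted p = 0.0028). In tolerized against LPS macrophages 11 fell and 1 rose, with a median of -2.14. Cxcl10 fell by 4.71 (SE 0.37, adjusted p = 0.0065) and Rsad2 fell by 4.33 (SE 0.31, adjusted p = 0.0050), and the 1 that rose was Ciita. In tolerized against naive macrophages 13 rose and 0 fell, with a median of 3.26. The largest of these increases were those of Cxcl10, at 5.44 ± 0.37 (adjusted p = 0.0017), and Oasl1, an antiviral OAS-like gene, at 5.36 ± 0.42 (adjusted p = 0.0022). The counts after rescaling were the same for each of these comparisons. Over all genes 8.74% rose with LPS, 4.32% fell in tolerized against LPS macrophages and 7.41% rose in tolerized against naive macrophages.

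The same 15 genes were mostly higher in KO than in WT libraries. In naive macrophages 13 were higher and 10 met the rule of size, with a median KO minus WT difference of 1.44 against -0.03 over all genes. Isg15, a ubiquitin-like antiviral protein, had 39.7 FPKM in KO naive and 4.19 FPKM in WT naive macrophages. The naive KO library thus held more of 13 of these transcripts before any LPS, and more Irf7. Of the cell markers, it held more Ly6c2 and more S100a8 (166 FPKM in KO naive and 65.2 FPKM in WT naive macrophages). It held less Ccr2 (1.17 and 9.68 FPKM), Gata6 (4.88 and 13.0 FPKM) and Cd5l (9.26 and 69.6 FPKM). Of the same list as Gata6 and Cd5l, Timd4 was higher (108 and 35.6 FPKM) and Icam2 was similar (22.6 and 23.4 FPKM). The 4 genes of that list summed to 145 FPKM in KO naive and 142 FPKM in WT naive macrophages. With LPS 14 were higher and 5 met the rule, with a median of 0.66 against -0.11. Ifit2, an inhibitor of viral translation, had 1025 FPKM in KO LPS and 182 FPKM in WT LPS macrophages, while Cxcl10 had 5246 and 5175 FPKM. In tolerized macrophages 15 were higher and 11 met the rule, with a median of 1.32 against -0.02. Rsad2 had 331.5 FPKM in KO tolerized and 43.1 FPKM in WT tolerized macrophages. The limma fit of KO against WT called 0 of the 15, with 13 at an unadjusted p under 0.05. The one-factor fit called 0 with 0 under that p, but it counts the large LPS changes of these genes as spread and so cannot decide. Rsad2 came to 2.39 ± 0.25 (adjusted p = 0.13) and Ifit2 to 2.35 ± 0.32 (adjusted p = 0.16).

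**Figure D4:**
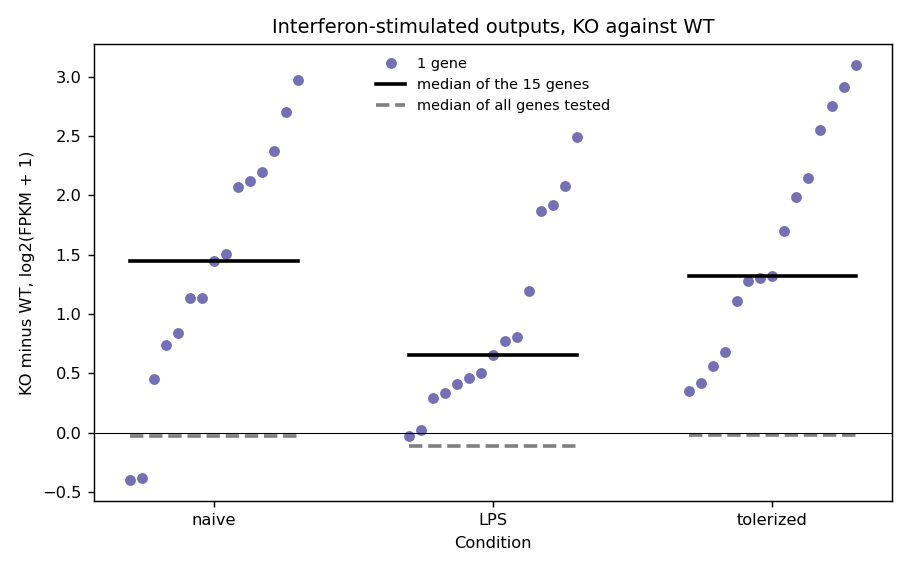
KO minus WT difference in log2(FPKM + 1) of the 15 interferon-stimulated outputs (points, sorted within each condition), 1 library per group. Solid lines are the medians of the 15 genes, at 1.44, 0.66 and 1.32 in naive, LPS and tolerized macrophages, and dashed lines those of all genes tested, near 0.

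For each member, the 3 genes with the most similar profile were found by the root mean square (RMS) difference of centred log2(FPKM + 1) values over the 6 libraries, as a description. Candidates were tested genes that reached 10 FPKM in at least 1 library. The nearest to Ifnb1 were Tnfsf15, a TNF family ligand (RMS 0.71), Iigp1, an interferon-inducible GTPase (0.76), and Fam26f (0.85). Irf7 was followed most closely by Tarm1 (0.54), Slc7a2, a cationic amino acid transporter (0.62), and Zbp1, a sensor of nucleic acids (0.65). Irf1 had March5, Tpst1 and Slc25a22 (0.20 to 0.28) nearest, and Irf2 had Stx3, Cpne3 and Ccdc23 (0.15 to 0.24). The genes nearest to Irf3 were B230219D22Rik, 1110049F12Rik and Rnf215 (0.04 to 0.07), and those nearest to Irf5 were Tgif1, Chmp4b and St6galnac4 (0.09 for each). Plagl2, Uck2 and Cxcr5, a chemokine receptor of B cells, were nearest to Irf4 (0.18 to 0.20), and Stard8, Whsc1l1 and Bbx to Irf8 (0.13 to 0.19). Irf9 ran closest to Map2k1, Ier5 and Ptpn2, a phosphatase that acts on JAK and STAT proteins (0.07 to 0.13).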

How the data were processed

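TruSeq libraries were prepared from poly-A RNA, per the labels' protocols. For each library the authors deposited FPKM (fragments per kilobase of transcript, relative to the mapped fragments) and interval bounds by gene, per the file headers. The tools were bcl2fastq 1.8.4, TopHat and Cufflinks with mouse build mm9, per the submitters' processing notes. Other versions, the annotation and the pooling of the stated triplicates were not given in the sources used here.

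From 23699 rows, 349 not marked OK in every library, 712 of symbols at several loci and 789 of small RNAs were left out. Of the 22165 kept, 10139 had at least 2 FPKM in at least 2 libraries and entered limma 3.58.1 under R 4.3.3 (condition plus genotype, eBayes with trend, two-sided, Benjamini-Hochberg, threshold 0.05) on log2(FPKM + 1), which understates changes of low genes. Degrees of freedom were 2 (residual) and 4.2 (prior), and the fit was tested on simulated data. Fragment numbers were estimated from the interval widths: of those under 200, 69.7% to 70.5% lay within 0.01 of a whole number. Read depth was not otherwise known, and 95% counting intervals of ratios rest on these numbers. Because FPKM is relative to the library, genes that gain a large share lower all others: the 50 most abundant rows took 34.0% to 45.8% of FPKM, more in the LPS and tolerized libraries than in the naive ones, and rescaling by the median of ratios was tried. Other alternatives were a pseudocount of 0.1, no filter on low values, leaving out each library and a one-factor fit. The deposited mm9 starts were 0-based and were raised by 1. RefSeq and GENCODE sequences are of GRCm38, and no coordinate was moved between builds.

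Members, gene lists and tests were chosen with earlier results of these data known. All 9 members are named, with the 2 genes of the largest change in each pathway list and comparison described, genes a result turns on and the 3 nearest profiles per member; Isg15, Ifng, the alpha interferons, Ciita, Ifit2 in LPS, the listed lambda and epsilon genes and the cell markers were chosen after their values were seen. Listed genes without a usable row are not analysed here.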

Additional observations from a re-analysis of the deposited data

Results flagged for a closer look

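For 3 members the KO and WT libraries moved in opposite directions under the same contrast, with 1 library per group, and the difference between genotypes was not tested. For Irf2 with LPS, the log2 difference from naive was 0.54 in KO and -0.55 in WT, a KO change minus WT change of 1.092. After rescaling the WT value was 0.01, so the opposite sign in WT rests on the scale. Irf8 with LPS was at 1.00 in KO and -0.87 in WT, a difference of 1.874, and at 1.70 and -0.31 after rescaling. Irf1 in tolerized against naive macrophages was at -0.26 in KO and 0.16 in WT, a difference of -0.4164, and at -0.07 and 0.31 after rescaling.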

How the results depend on the processing

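No paired analysis was possible because each group is 1 library and the labels give no replicate numbers; the fit itself compares conditions within genotype and KO with WT within condition, and the one-factor fit, without the second term, gave the same counts of members. The number of members that rose with LPS was 5, and 4 to 6 under the alternatives. The 1 member that fell with LPS became 0 after rescaling and 0 without the filter on low values. Of tolerized against LPS, the 1 that rose became 0 after rescaling, 0 without the filter and 0 to 2 when 1 library was left out, and the 4 that fell became 0 without the filter and 2 to 4 with 1 library left out. For tolerized against naive, the 3 that rose became 0 without the filter, and the 1 that fell became 0 after rescaling, 0 without the filter and 0 to 1 with 1 library left out. In KO against WT, 0 members were higher, and 0 to 1 with 1 library left out. That 1 was Irf7, without WT tolerized or KO tolerized. With 1 library left out the Irf7 difference ranged over 0.96 to 2.42. Without the filter 22165 genes were tested and calls over all genes were also fewer: for tolerized against LPS 25 rose and 3 fell, against 3733 and 438 with it, and for tolerized against naive 31 rose and 14 fell, against 751 and 2000.

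The sign of values that had not passed reversed as follows, on the log2 scale. After rescaling these were Irf2 (0.63) for LPS against naive, Irf1 (0.12) and Irf5 (0.0078) for tolerized against naive, and Irf4 (0.0073) for KO against WT. Leaving out a library reversed, for LPS against naive, Irf2 (-0.45 to 0.44) and Irf8 (-0.65 to 0.77), for tolerized against LPS Irf7 (-0.081 to 1.53) and Irf8 (-1.21 to 0.21), for tolerized against naive Ifnb1 (-0.059 to 1.85), Irf1 (-0.38 to 0.27) and Irf8 (-1.14 to 0.26), and for KO against WT Irf2 (-0.10 to 0.45), Irf4 (-0.17 to 0.11), Irf8 (-0.44 to 0.49) and Irf9 (-0.14 to 0.020). The causes were not tested.

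The limit throughout is 1 library per group: condition effects rest on 2 libraries and genotype effects on 3, and an effect present in 1 genotype only counts as spread in the fit. Depth limits Ifnb1 in naive and tolerized macrophages, where at most 23.0 fragments were implied.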
